A study of Homo sapiens with 17 samples.

Results

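HNRNPU intervals that rested on a single repeat made up 28143 of the 46914 intervals on chromosomes 1 to 22 of a deposited, series-wide list (59.99%), in H1 human pluripotent stem cells, an established line. Chromatin was profiled by CUT&Tag, in which an antibody guides the Tn5 transposase to cut and tag nearby DNA. Every interval was 400 bp long, and the deposited list of each library gave 1 summit per called peak, at the position where its signal was highest. An interval was placed in the one-repeat class when it held a summit of exactly 1 of the 2 HNRNPU repeats, and in the both-repeat class when it held a summit of each. The members were thus chosen by the called summits of the HNRNPU libraries, and the HNRNPU scores below are a description only. Of the one-repeat intervals, 14464 held a summit of repeat 1 and 13679 a summit of repeat 2. The both-repeat class held 17771 intervals, and a further 1000 held no summit of either repeat.

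The HNRNPU libraries came from untransfected H1 cells. For H3K4me1 and H3K27ac, 4 libraries each came from H1 cells given lentiviral shRNA against HNRNPU (shHNRNPU#1 and shHNRNPU#2, with 2 replicates each) and 2 each from cells given shRNA against luciferase (shLUC, the control), after puromycin selection. For POLIIS2P there were 2 shLUC libraries and 1 shHNRNPU#1 library. The antibody list of the protocol names HNRNPU and H3K27ac but neither H3K4me1 nor POLIIS2P, so those names rest on the sample titles. For the 4 shLUC histone libraries, the titles and the peak names inside the lists give opposite antibodies. Such a library is called here by its title, as the library labelled H3K4me1 shLUC or labelled H3K27ac shLUC. The remaining HNRNPU protein after the shRNA was not measured in these libraries. Read depth is unknown, since only summits were analysed. On chromosomes 1 to 22 the lists held 34593 and 33743 HNRNPU summits, 39982 to 209132 histone summits and 78211 to 85309 POLIIS2P summits. The labels do not say whether replicates were separate cultures, so p-values measure the spread between libraries, which may be technical.

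HNRNPU, also called SAF-A, is an abundant nuclear protein that binds RNA and chromatin and belongs to the nuclear matrix, the scaffold to which chromatin loops are attached. H3K4me1 is a histone modification found at enhancers, both poised and active. H3K27ac is found at active enhancers and active promoters. POLIIS2P names RNA polymerase II phosphorylated on serine 2 of its C-terminal repeats, the form that travels along genes while they are transcribed.

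One-repeat intervals lay at the starts of genes of very different kinds. The following sequences are shown because a one-repeat HNRNPU summit fell inside each of them, at genes that come back below: SAFB, a nuclear matrix protein related to HNRNPU by its DNA-binding SAP domain; NEUROD1, a transcription factor of neuronal differentiation; ZNF672, a zinc finger protein with one of the highest-scoring one-repeat summits; and DVL2, a Wnt signal transducer with one of the strongest POLIIS2P signals. Each holds the 250 bases before the annotated gene start, 5′ to 3′ on the strand of the gene, from RefSeq (GRCh38.p14). Capitals mark the 21 bases centred on the HNRNPU summit. The windows are chr19:5622833-5623082 on the plus strand for SAFB, chr2:181680518-181680767 on the minus strand for NEUROD1, chr1:248837974-248838223 on the plus strand for ZNF672 and chr17:7234518-7234767 on the minus strand for DVL2.
SAFB: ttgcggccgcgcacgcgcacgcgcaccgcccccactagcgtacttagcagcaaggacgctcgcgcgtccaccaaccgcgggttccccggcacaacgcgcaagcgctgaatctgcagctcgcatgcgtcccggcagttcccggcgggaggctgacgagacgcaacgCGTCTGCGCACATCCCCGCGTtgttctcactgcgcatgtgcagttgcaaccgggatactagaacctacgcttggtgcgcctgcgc
NEUROD1: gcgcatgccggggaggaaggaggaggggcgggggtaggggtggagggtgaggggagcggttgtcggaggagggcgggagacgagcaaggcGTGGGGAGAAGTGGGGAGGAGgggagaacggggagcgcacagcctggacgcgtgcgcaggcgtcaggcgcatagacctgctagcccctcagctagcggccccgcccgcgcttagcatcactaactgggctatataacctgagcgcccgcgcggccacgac
ZNF672: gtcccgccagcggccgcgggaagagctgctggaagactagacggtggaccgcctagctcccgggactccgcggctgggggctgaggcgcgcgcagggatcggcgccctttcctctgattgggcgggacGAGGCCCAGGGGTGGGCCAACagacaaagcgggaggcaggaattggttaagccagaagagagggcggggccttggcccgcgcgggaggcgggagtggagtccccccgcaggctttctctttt
DVL2: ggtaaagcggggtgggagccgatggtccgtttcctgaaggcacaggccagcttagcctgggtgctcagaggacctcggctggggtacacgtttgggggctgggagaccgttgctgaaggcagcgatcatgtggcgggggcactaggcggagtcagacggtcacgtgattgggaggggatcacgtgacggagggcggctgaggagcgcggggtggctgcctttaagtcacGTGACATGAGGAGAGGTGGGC

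One-repeat intervals held mostly low-scoring HNRNPU summits. Scores are −log10 of a significance value and were compared only within a list. The repeat 1 only intervals had a median score of 2.90, at the 28.1st percentile of all summits of repeat 1, with quartiles at 11.8 and 48.7. The repeat 2 only intervals had a median score of 3.01, at the 29.2nd percentile. In the both-repeat class the medians were 6.75 in repeat 1 and 6.95 in repeat 2, at the 70.9th and 70.2nd percentiles. The classes overlapped, since 62 repeat 1 only intervals (0.429%) and 37 repeat 2 only intervals (0.270%) stood above the 90th percentile of their list. Below the median of the list lay 76.4% of the repeat 1 only and 77.3% of the repeat 2 only intervals.

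Few one-repeat intervals were near misses of position. A summit of the other repeat lay within 400 bp of the centre in 273 (0.970%) and within 1000 bp in 771 (2.74%). The sole summit was the centre of the interval in 27875 one-repeat intervals (99.05%). That describes how the intervals were placed and does not bear on near misses. In the both-repeat class the summits of the repeats were a median of 66 bp apart, a distance that the 400 bp interval limits. At the edge of the rule, the 150 one-repeat intervals whose other repeat had a summit over 200 and up to 250 bp from the centre had a median HNRNPU percentile of 65.2. Of these, 54.7% lay at gene ends, against 45.8% of the 952 both-repeat intervals whose farther summit was 150 to 200 bp from the centre, whose median percentile was 53.5. The intervals just outside the interval limit thus resembled the both-repeat class more than they did the other one-repeat intervals.

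One-repeat intervals were mostly remote from gene ends. A gene end, meaning up to 1000 bp from the start or the far end of a protein-coding gene, held 3250 of them (11.5%), against 41.8% of both-repeat intervals and 23.7% of all intervals. Gene bodies held 13539 (48.1%), against 31.1% of both-repeat intervals and 41.3% of all. The remaining 11354 (40.3%) were intergenic, against 27.1% of both-repeat intervals and 35% of all. These shares come from 1 interval list and were not tested. The members from either repeat were alike, with 11.4% of repeat 1 only and 11.7% of repeat 2 only intervals at gene ends.

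Strand, and with it which end is the start, was known for 15101 of the 19126 protein-coding genes, those with a RefSeq promoter entry. The classes differed at these starts and were close at the far ends, and gene-end intervals at the other genes fall under neither. A start was within 1000 bp of 2154 one-repeat intervals (7.65%) and of 34.9% of both-repeat intervals. The far end of a gene, with no start near, was within 1000 bp of 497 (1.77%) and of 1.64%. The median distance to such a start was 54920 bp in the one-repeat class and 14367 bp in the both-repeat class. More than 100000 bp from any such start lay 35.6% of one-repeat and 20.9% of both-repeat intervals. Protein-coding genes of at least 500000 bp held 2059 one-repeat intervals (7.32%), against 3.56% of both-repeat intervals. Of the intergenic one-repeat intervals, 3069 (10.9% of the class) lay in or within 1000 bp of a long noncoding RNA gene. A both-repeat interval lay within 10000 bp of 14.0% of one-repeat intervals and within 50000 bp of 55.2%, at a median distance of 42124 bp. These shares were not compared with those of random positions.

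The one-repeat class was also spread more evenly over the chromosomes. It ran from 7.75 intervals per Mb on chromosome 21 to 15.3 on the gene-rich chromosome 19, a range of 1.97-fold. The both-repeat class ran from 3.84 per Mb on chromosome 18 to 18.8 on chromosome 19, a range of 4.88-fold. One-repeat intervals made up 43.7% of all intervals on chromosome 19 and 66.8% on chromosome 18. Over the 22 chromosomes, density was higher with more protein-coding genes per Mb, with Pearson's r of 0.866 in the one-repeat and 0.985 in the both-repeat class, given as a description, since chromosomes of 1 genome share the same libraries.

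**Figure D1:**
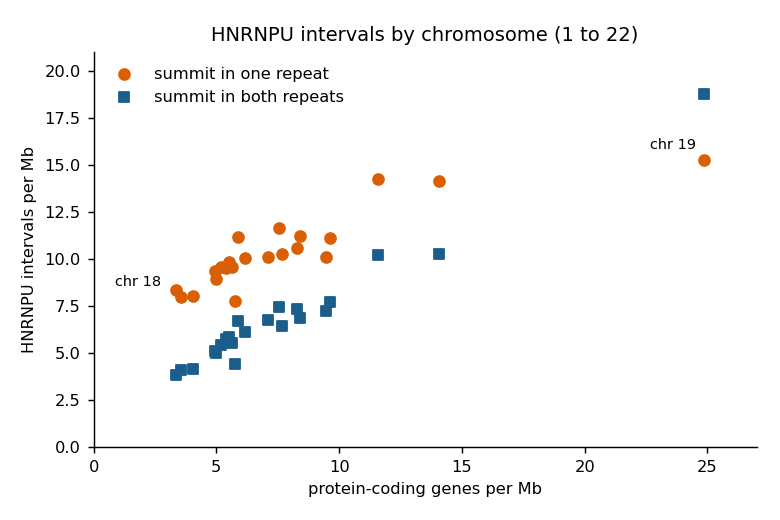
HNRNPU intervals per Mb (vertical axis) against protein-coding genes per Mb (horizontal axis) for chromosomes 1 to 22, each chromosome as 1 circle for the one-repeat class and 1 square for the both-repeat class. On chromosome 19 the both-repeat class (18.8 per Mb) stood above the one-repeat class (15.3 per Mb), and on chromosome 18 it stood below (3.84 against 8.35 per Mb).

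Histone marks were less frequent at one-repeat than at both-repeat intervals in all 12 histone libraries. To compare lists of unequal length, an interval was taken to carry a strong mark when 1 of the 20000 highest-scoring summits of the library lay within 500 bp of its centre. On average 13.9% of one-repeat and 32.5% of both-repeat intervals carried a strong histone mark, a difference of 18.6 percentage points ± 9.01 (SD, n = 12 libraries). The difference was 9.49 to 31.4 points in single libraries and passed the exact paired permutation test, two-sided (p = 0.000488, the smallest that 12 libraries allow; Benjamini-Hochberg adjusted p = 0.00391 over 8 tests). The SD runs over both antibodies and all shRNAs, so it is not a spread of replicates. All 12 libraries were scored on the same classes, from the same pair of HNRNPU libraries. The p-value therefore does not measure how the classes would differ with other HNRNPU libraries. In bulk libraries such as these, fewer cells with a mark and less of the mark per cell cannot be told apart.

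H3K4me1 was the mark the classes shared most nearly. In the shHNRNPU#1 libraries 15.2% and 15.5% of one-repeat intervals carried it, and in the shHNRNPU#2 libraries 15.1% and 15.4%. The both-repeat intervals carried it at 25.4%, 25.5%, 25.2% and 27.4% in the same libraries. The groups did not overlap, and the one-repeat share was 0.592 ± 0.0210 (SD, n = 4) of the both-repeat share. For scale, 0.714% of the span of chromosomes 1 to 22 lay within 500 bp of a strong H3K4me1 summit, so that the one-repeat share was 21.1 to 21.8 times the share of the span.

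On the same count, H3K27ac showed a wider gap. It was carried by 11.7% and 11.4% of one-repeat intervals in the shHNRNPU#1 libraries and by 12.3% and 13.1% in the shHNRNPU#2 libraries. The both-repeat intervals carried it at 36.0%, 34.1%, 41.6% and 39.8%. The one-repeat share was 0.322 ± 0.0172 (SD, n = 4) of the both-repeat share, and still 16.02 to 18.3 times the share of the span.

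Between the classes, H3K27ac thus differed by 25.7 points and H3K4me1 by 10.6 points in shHNRNPU cells. The difference of 15.1 points gave an exact permutation p of 0.0286, two-sided, the smallest that 4 against 4 libraries allow, and an adjusted p of 0.0889, which does not pass 0.05. This test was added after seeing the data. Away from gene ends the gap was 22.1 points for H3K27ac and 20.0 points for H3K4me1, a difference of 2.12 points (exact permutation p = 0.257). With summits of a score of at least 10 in place of the 20000 strongest, the gaps were 17.4 and 19.4 points, a difference of −1.96 points.

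The shLUC libraries came near these ranges under the opposite names. The libraries labelled H3K4me1 shLUC had a strong summit at 12.6% and 12.9% of one-repeat intervals and at 40.2% and 44.3% of both-repeat intervals, near the values of H3K27ac in shHNRNPU cells. The libraries labelled H3K27ac shLUC had one at 15.3% and 15.6% of one-repeat intervals and at 25.1% of both-repeat intervals in each library, near the values of H3K4me1 in shHNRNPU cells. For this reason the marks are described below from the shHNRNPU libraries, whose names agree.

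POLIIS2P showed the widest gap. It was at 11.01% of one-repeat intervals in the shHNRNPU#1 library and at 10.99% and 10.9% in the shLUC libraries. The both-repeat intervals carried it at 47.8%, 47.4% and 46.0%. The difference was 36.1 points ± 0.891 (SD, n = 3), and the one-repeat share was 0.233 ± 0.00342 of the both-repeat share. All 3 libraries went the same way, but 3 libraries cannot give an exact paired permutation p below 0.25 (adjusted p = 0.267). Away from gene ends, 9.44% of one-repeat and 35.9% of both-repeat intervals carried POLIIS2P. At one-repeat intervals POLIIS2P was 15.3 to 15.5 times as frequent as over the span.

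**Figure D2:**
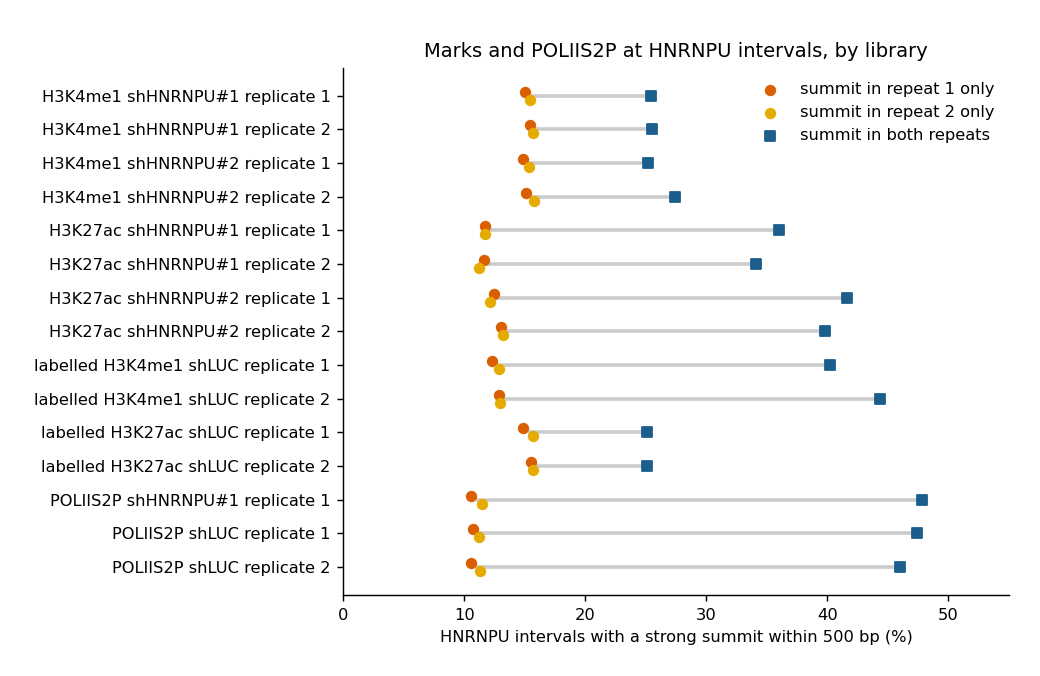
Share of HNRNPU intervals (horizontal axis, %) with a strong summit within 500 bp in each of the 15 histone and POLIIS2P libraries (vertical axis), with circles for intervals of repeat 1 only and repeat 2 only and squares for intervals of both repeats. The circles lie between 10.5% and 15.7% in every library, and the squares between 25.1% and 47.8%.

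Intervals of repeat 1 only and repeat 2 only carried marks at similar shares. Over the 12 histone libraries the share was 13.7% at repeat 1 only and 14.0% at repeat 2 only intervals, a difference of 0.247 points ± 0.370 (SD, n = 12). Its exact paired permutation p was 0.0444, two-sided, and its adjusted p of 0.0889 did not pass 0.05. The POLIIS2P shares were 10.6% ± 0.121 at repeat 1 only and 11.3% ± 0.132 at repeat 2 only intervals (SD, n = 3).

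Where a mark was present, it was centred on the interval. Strong H3K4me1 summits numbered 104 per 1000 one-repeat intervals in the 200 bp bin at the centre, and 1.71 per 1000 in the bin 3000 bp away on the side of lower coordinates. For H3K27ac the values were 68.7 and 1.34, and for POLIIS2P 68.5 and 1.36. At the both-repeat centres the values were 189, 234 and 329. At 1000 bp from the centre the classes had come close, with 2.65 and 1.67 H3K4me1 summits, 2.84 and 3.53 H3K27ac summits and 3.41 and 4.33 POLIIS2P summits per 1000 one-repeat and both-repeat intervals.

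**Figure D3:**
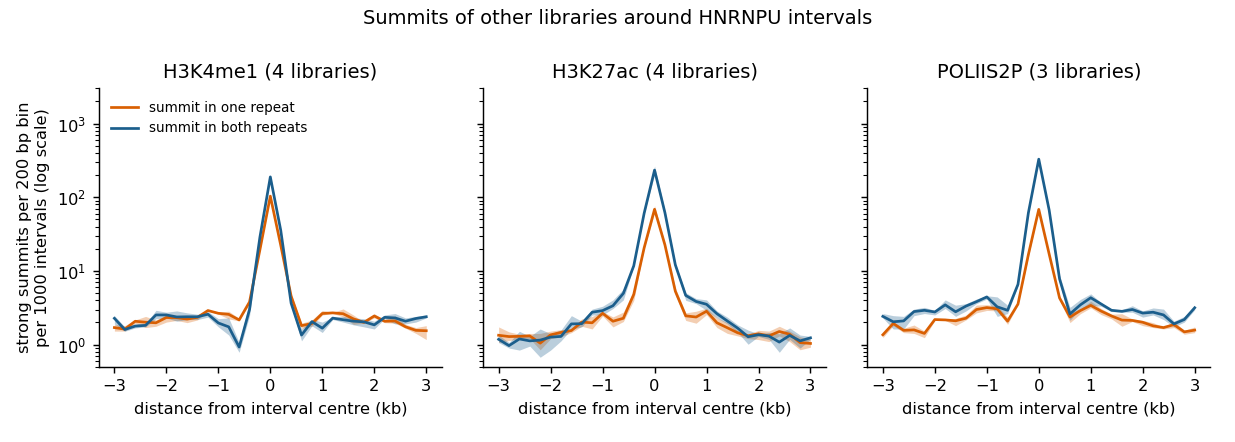
Strong summits per 1000 HNRNPU intervals in 200 bp bins (vertical axis, log scale) by distance from the interval centre (horizontal axis, kb) for H3K4me1 and H3K27ac in shHNRNPU cells and POLIIS2P in all 3 libraries. Lines are means over libraries and bands run from the lowest to the highest library. Both classes peak at the centre, at 104 against 189 for H3K4me1 and at 68.5 against 329 for POLIIS2P (one-repeat against both-repeat).

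Few one-repeat intervals carried the same mark in every library. Strong H3K4me1 in all 4 shHNRNPU libraries was seen at 2640 (9.38%), against 12.4% of all intervals and 17.5% of both-repeat intervals. Strong H3K27ac in all 4 was seen at 1104 (3.92%), against 10.8% of all and 21.6% of both-repeat intervals. Strong POLIIS2P in all 3 libraries was seen at 1841 (6.54%), against 18.2% of all and 36.6% of both-repeat intervals.

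The following combinations of marks were also less frequent in the one-repeat than in the both-repeat class. H3K4me1 with H3K27ac, the pair of an active enhancer, was strong in all 8 shHNRNPU libraries at 352 intervals (1.25%), against 3% of all and 5.80% of both-repeat intervals. H3K27ac in all 4 together with POLIIS2P in all 3 was seen at 229 (0.814%), against 5.42% of all and 12.8%. H3K27ac in all 4 with no strong H3K4me1 in any of 4, as at many promoters, was seen at 547 (1.94%), against 5.75% of all and 11.6%. POLIIS2P in all 3 with no strong histone summit in any of 12 libraries was seen at 589 (2.09%), against 3.62% of all and 5.94%.

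One combination was about as frequent in the classes as a whole, but not within each annotation. Strong H3K4me1 in all 4 with no strong H3K27ac in any of 4 was found at 1245 one-repeat intervals (4.42%), against 4.52% of all and 4.77% of both-repeat intervals. With all deposited summits, this pattern was found at 4695 one-repeat intervals (16.7%), against 14.8% of all and 11.7% of both-repeat intervals. With strong summits, it was found at 2.34% of one-repeat and 1.49% of both-repeat intervals at gene ends. In gene bodies the shares were 5.04% and 7.15%, and among intergenic intervals 4.28% and 7.07%. The order of the classes thus depended on the list used and on the annotation, and it was not tested.

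The most common state of a one-repeat interval was the absence of strong marks. No strong summit of any of the 15 other libraries lay within 500 bp of 15078 (53.6%), against 38.8% of all and 15.998% of both-repeat intervals. Most of these had weaker summits, since no deposited summit at all was within 500 bp of 3455 (12.3%), against 7.62% of all and 0.636% of both-repeat intervals. At the other end, 795 (2.82%) had a deposited summit in all 15 lists, against 9.11% of all and 19.1%. The median one-repeat interval had a deposited summit in 6 of the 15 libraries and a strong one in 0, against 11 and 5 in the both-repeat class.

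**Figure D4:**
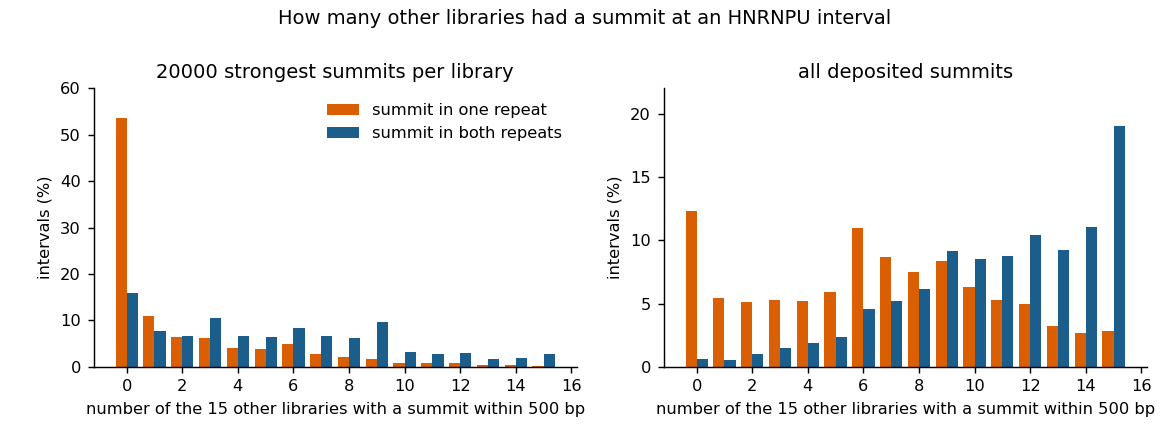
Share of HNRNPU intervals (vertical axis, %) by the number of the 15 other libraries with a summit within 500 bp (horizontal axis), with the 20000 strongest summits per library on the left and all deposited summits on the right. Bars at 0 hold 53.6% of one-repeat and 15.998% of both-repeat intervals on the left, and 12.3% and 0.636% on the right.

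With all deposited summits, H3K4me1 was at 55.2% to 66.5% of one-repeat intervals in the shHNRNPU libraries, H3K27ac at 19.8% to 37.1% and POLIIS2P at 31.0% to 35.8%. The both-repeat ranges were 78.4% to 89.2%, 46.1% to 68.1% and 73.3% to 77.2%. No range of the one-repeat class met that of the both-repeat class for the same antibody. These shares move with the length of each list, which differed between libraries.

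Within the one-repeat class, the marks differed by annotation. POLIIS2P was strong in all 3 libraries at 464 of the 3250 gene-end intervals (14.3%), at 1052 gene-body intervals (7.77%) and at 325 intergenic intervals (2.86%). H3K4me1 was strong in all 4 at 4.18% of gene-end, 11.4% of gene-body and 8.50% of intergenic intervals. H3K27ac was strong in all 4 at 4.12%, 4.97% and 2.62%. One-repeat gene ends thus carried H3K27ac about as often as one-repeat gene bodies did, whereas in the both-repeat class H3K27ac was strong in all 4 at 25.7% of gene ends and 20.4% of gene bodies. Gene ends pool starts and far ends, whose mix differed between the classes, and H3K27ac was not split by them. Intergenic intervals were the barest, with no strong summit in any of the 15 libraries at 58.8%, against 49.2% at gene ends and 50.2% in gene bodies.

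Inside the one-repeat class, marks were more frequent at higher HNRNPU scores. From the lowest to the highest 20 of the 100 percentiles (9639 and 620 intervals), the mean share with strong H3K4me1 went from 8.28% to 43.6%, that with H3K27ac from 7.91% to 32.4% and that with POLIIS2P from 5.22% to 43.2%. The gene-end share went from 7.09% to 27.3%, and the share with no deposited summit of any other library from 21.1% to 1.77%. In the both-repeat class, H3K27ac ran from 17.04% to 57.3%, POLIIS2P from 14.3% to 78.2% and the gene-end share from 16.2% to 61.0%. A both-repeat interval has a score in 2 lists and a one-repeat interval in 1, so the bins of the classes are not strictly alike. With that limit, the one-repeat class stayed below the both-repeat class in H3K27ac, POLIIS2P and gene ends in all 5 bins. For H3K4me1 the order turned in the upper 2 bins, where one-repeat intervals stood at 31.4% and 43.6% and both-repeat intervals at 29.5% and 26.8%. In these bins 18.4% and 27.3% of one-repeat intervals lay at gene ends, against 40.8% and 61.0% of both-repeat intervals. H3K4me1 was not split by annotation within the bins. These values use the scores that chose the classes and are given without a test.

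**Figure D5:**
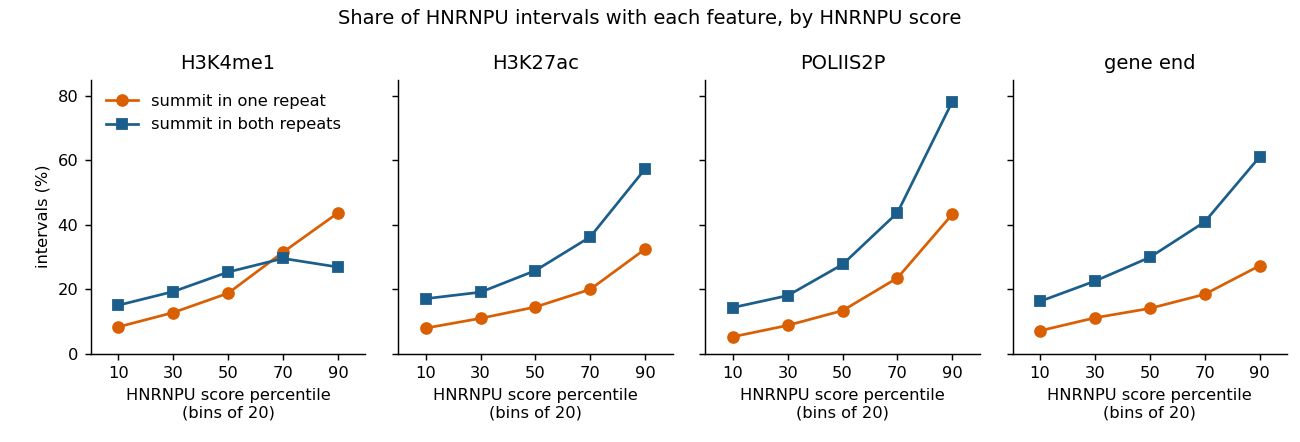
Share of HNRNPU intervals (vertical axis, %) with strong H3K4me1, H3K27ac or POLIIS2P (mean over 4, 4 and 3 libraries) or at a gene end, by percentile of the HNRNPU score within its list in bins of 20 (horizontal axis). The one-repeat line lies below the both-repeat line in each bin of H3K27ac, POLIIS2P and gene ends, and crosses above it for H3K4me1, ending at 43.6% against 26.8%. In that last bin 27.3% of one-repeat and 61.0% of both-repeat intervals lay at gene ends. A both-repeat interval has a score in 2 lists and a one-repeat interval in 1, so the bins of the classes are not strictly alike.

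Whether the marks at one-repeat intervals differed after shHNRNPU was asked next. As labelled, strong H3K4me1 was at 15.3% ± 0.202 (SD, n = 4) of one-repeat intervals in shHNRNPU and 12.8% in shLUC libraries (12.6% and 12.9%), a difference of 2.56 points. As labelled, H3K27ac was at 12.2% ± 0.743 (SD, n = 4) in shHNRNPU and 15.4% in shLUC libraries (15.3% and 15.6%), a difference of −3.27 points. The groups did not overlap in either comparison, and both gave an exact permutation p of 0.0667, two-sided, the smallest that 4 against 2 libraries allow (adjusted p = 0.0889). With the antibody names of the shLUC libraries exchanged, the differences were −0.119 points for H3K4me1 (exact permutation p = 0.533) and −0.595 points for H3K27ac (exact permutation p = 0.333), both smaller than the SD of the shHNRNPU libraries.

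Joining both antibodies of the same shRNA and replicate number removed the choice of names. A strong H3K4me1 or H3K27ac summit was then at 23.4% and 23.3% of one-repeat intervals for shHNRNPU#1, at 22.9% and 23.7% for shHNRNPU#2 and at 24.0% and 24.4% for shLUC. The groups did not overlap, with shHNRNPU lower by 0.866 points on average, written as −0.866 ± 0.313 (SD of the 4 shHNRNPU sets), at an exact permutation p of 0.0667 (adjusted p = 0.0889). It was −3.76 points with all deposited summits (exact permutation p = 0.467) and −0.252 with the 10000 strongest (exact permutation p = 0.133). The same difference at one-repeat minus that at both-repeat intervals was 2.32 points, with an exact permutation p of 0.267. No comparison of this design can pass 0.05. POLIIS2P was at 11.01% of one-repeat intervals in the single shHNRNPU#1 library and at 10.9% on average in shLUC cells, a difference of 0.0675 points that was smaller than the SD of the shLUC replicates (0.0704) and has no test.

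Among 19126 protein-coding genes of chromosomes 1 to 22, 2828 (14.8%) had only one-repeat intervals within 1000 bp of their ends, while 8456 (44.2%) had a both-repeat interval there. In all, 3384 (17.7%) had a one-repeat interval at an end, with or without a both-repeat one. Of 439 transfer RNA genes 72 (16.4%) had only one-repeat intervals, and 120 (27.3%) a both-repeat one. Of the long noncoding RNA genes 8.49% had only one-repeat intervals and 14.3% a both-repeat one. Pseudogenes were the one kind with more one-repeat intervals, with 445 of 14324 (3.11%) against 214 (1.49%) with a both-repeat interval.

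Gene lists were compared with those shares of all protein-coding genes, 14.8% with only one-repeat intervals and 44.2% with a both-repeat one. Of 23 regulators of neural and mesendoderm differentiation, 10 (43.5%) had only one-repeat intervals and 7 a both-repeat interval. Of 22 pluripotency genes, 3 had only one-repeat intervals and 8 a both-repeat one. Of 79 cytosolic ribosomal protein genes the counts were 13 and 57, of 77 mitochondrial ribosomal protein genes 10 and 55, of 39 hnRNP and nuclear matrix genes 3 and 33, and of 27 writers and readers of enhancer marks 3 and 20. The lists are short, were chosen with results of these data known and were not tested.

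The differentiation regulators with only one-repeat intervals were SOX11, NEUROD1, MIXL1, GSC, GATA4, GATA6, SOX17, MESP1, HAND1 and LHX1. Of their 10 intervals, 8 had no strong summit in any other library, against 49.2% of all one-repeat gene-end intervals. None had strong H3K4me1 in any of 4 libraries, as had 87.7% of one-repeat gene-end intervals in general. The exceptions were MIXL1, a mesendoderm homeobox factor, with strong POLIIS2P in 3 of 3 libraries at chr1:226223550-226223949, and NEUROD1, with it in 2 of 3 at chr2:181680467-181680866. HAND1, a cardiac and trophoblast factor, had its summit 4 bp from a gene end at the 40.3rd percentile of repeat 2, with deposited summits in 2 lists. GATA6, an endoderm factor, had one 471 bp from a gene end at the 49.2nd percentile, with deposited summits in 6 lists. SOX17, another endoderm factor, had deposited summits in 11 lists but no strong one.

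The ribosomal protein genes of the class looked different. Of the 13 cytosolic ones, 9 had strong H3K27ac in all 4 shHNRNPU libraries, against 4.12% of all one-repeat gene-end intervals. No strong H3K4me1 was found at 11 of the 13, against 87.7%. RPS28, a small-subunit protein, carried a repeat 1 summit 10 bp from its end at the 87.4th percentile, with strong H3K27ac in 4 of 4 and POLIIS2P in 3 of 3 libraries. RPL13A, a large-subunit protein, carried a repeat 2 summit at the 86.2nd percentile, with strong H3K27ac in 4 of 4 and POLIIS2P in 1 of 3. FAU, which encodes a ribosomal protein fused to a ubiquitin-like domain, and MRPL49, of the mitochondrial ribosome, shared 1 interval at chr11:65122039-65122438 with strong summits in 14 of the 15 libraries. RPL10L, a testis-expressed copy of RPL10, had no summit of any other library at its interval. Of the 10 mitochondrial ribosomal protein genes, 4 had strong H3K27ac in all 4 libraries.

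Of the hnRNP and nuclear matrix genes, SAFB and SAFB2 shared the interval shown above by its sequence. Its repeat 2 summit, at chr19:5623008, was 75 bp from SAFB and 232 bp from SAFB2, at the 65.6th percentile, with strong POLIIS2P in 3 of 3 libraries and no strong H3K4me1 or H3K27ac in shHNRNPU cells. SAFB had a further one-repeat interval, at chr19:5667649-5668048 near its other end, with deposited summits in all 15 libraries, strong H3K27ac in 3 of 4, strong H3K4me1 in 1 of 4 and strong POLIIS2P in 3 of 3. The HNRNPU gene itself held no one-repeat interval, and its 2 intervals, at chr1:244862950-244863349 and chr1:244864360-244864759, were of the both-repeat class. Of the pluripotency genes, SOX2, a core transcription factor, had a repeat 2 summit 396 bp from a gene end at the 62.7th percentile, with strong H3K27ac in 1 of 4 libraries. SALL4, another pluripotency transcription factor, had one at the 77.1st percentile with no strong mark, and UTF1, a chromatin-bound factor of stem cells, had one with strong H3K4me1 in 1 of 4. Among writers and readers, KMT2C, an H3K4 methyltransferase, had no strong mark, BRD9, a chromatin remodeller subunit, had strong H3K27ac in 2 of 4 libraries and CDK7, a kinase of RNA polymerase II, in 1 of 4.

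Inside protein-coding genes, 7485 (39.1%) held at least 1 one-repeat interval, and 4033 of these held no both-repeat interval. Most held few, with 661 genes at 5 or more and 121 at 10 or more. Matching counts for the both-repeat class, which is smaller, are not given here. These numbers are thus no comparison of the classes. Large numbers were found in long genes. PTPRN2, a phosphatase-like protein of secretory vesicles, held 29 one-repeat and 4 both-repeat intervals over 1049 kb. RAD51B, a recombination protein, held 22 and 2. TRIO, a guanine exchange factor, held 18 over 367 kb, which is 4.91 per 100 kb, against 2.77 per 100 kb in PTPRN2. SNX29, a sorting nexin, held 17 one-repeat intervals and 0 of the both-repeat class.

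The highest-scoring one-repeat summits fell in places of different kinds. Of the 10 highest of repeat 1, 4 had no summit in any other library. These were at chr4:190122802-190123201 (99.5th percentile, score 42.7), chr16:34581265-34581664 (98.9th, score 33.1), chr17:23016134-23016533 and chr17:26885571-26885970 (both at the 97.5th with a score of 24.8). None lay in or at a gene, and the nearest genes, long noncoding RNA genes or pseudogenes, were 10253 to 310698 bp away. The highest of repeat 2, at chr21:8436138-8436537, lay at RNA45SN1, a ribosomal RNA gene present in many copies (99.5th percentile, score 46.4), with a strong summit in 1 other library. RASA4CP, a transcribed pseudogene, held the next of repeat 2 (98.7th). How reads from repeated sequence were assigned is not given in the sources used here, so signal at such places is uncertain in origin.

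Other high-scoring one-repeat summits were at well-marked sites. ANGPTL2, a secreted angiopoietin-like protein, had a repeat 1 summit at the 97.4th percentile in an interval centred 6 bp from a gene end, with a repeat 2 summit 209 bp from the centre and strong summits in 11 of 15 libraries. ZNF71, a zinc finger gene, had one 57 bp from a gene end at the 97.4th percentile, with the nearest repeat 2 summit 27931 bp away and strong summits in 7. ZNF672 had one 112 bp from its start at the 96.5th, with strong summits in 4. PRCP, a lysosomal peptidase, had a repeat 2 summit at the 96.0th, with strong summits in 14. EGLN2, an oxygen-sensing hydroxylase, held one 1454 bp inside the gene at the 94.8th with strong summits in 8, and MTA2, a subunit of a deacetylase complex, at the 94.5th with 10. Thus high HNRNPU scores in a single repeat came with anything from 0 to 14 strong lists.

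The strongest POLIIS2P at one-repeat intervals was found over a wide range of HNRNPU scores. A deposited POLIIS2P summit in all 3 lists was found at 5944 one-repeat intervals (21.1%), against 38.1% of all intervals. Of these, 22.3% lay at gene ends, as did 7 of the 10 highest, whose HNRNPU percentiles ran from 14.6 to 95.2. At BSG, a membrane glycoprotein that carries lactate transporters, the POLIIS2P percentile was 99.97 in shHNRNPU#1 and 99.98 and 99.99 in shLUC cells, beside an HNRNPU percentile of 61.4. At DNMT3B, the de novo DNA methyltransferase of pluripotent cells, the interval 1716 bp from a gene end reached 99.89, 99.97 and 99.96, with an HNRNPU percentile of 71.4. At DVL2, whose upstream sequence is shown above, the interval centred 11 bp from the gene start reached 99.95, 99.87 and 99.88, with an HNRNPU percentile of 44.5. At SCRIB, a cell polarity scaffold, POLIIS2P reached 99.86, 99.91 and 99.90, with an HNRNPU percentile of 14.6. RNF40, a histone H2B ubiquitin ligase subunit, EXOSC6, an RNA exosome subunit, and AMDHD2, a sugar deacetylase, were also among the 10.

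A summit in all 12 histone lists was found at 1690 of the 28143 one-repeat intervals. The same count was made neither over all intervals nor over both-repeat intervals. The number and its places are therefore no trait of this class and only describe the pool of the named intervals. Gene bodies held 58.9% of the 1690, against 48.1% of the whole one-repeat class. Of the 10 highest by mean histone percentile, 8 were in gene bodies and 2, at TAF10 and LOC107986087, at gene ends, and all 10 had strong summits in 12 to 15 of the 15 libraries. In SLC30A7, a zinc transporter, the interval at chr1:100949563-100949962 had a mean histone percentile of 99.7 and was 46315 bp from a gene end. In NUDCD1 it was 99.7, in STN1, a telomere replication factor, 99.7, in SNX8, a sorting nexin, 99.6 and in ESYT2, a lipid transfer protein, 99.6. TAF10, a subunit of the general transcription factor TFIID, had one 815 bp from a gene end at 99.5. POLIIS2P differed among them, with a mean percentile of 97.4 in NUDCD1, 46.6 in SNX8 and 34.6 in ESYT2, and a sialyltransferase gene, ST6GALNAC3, had no POLIIS2P summit there.

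Promoters with only one-repeat intervals near the gene start were like those with a both-repeat interval there in base composition and differed in some motifs. RefSeq promoter sequence, from 250 bases before to 50 after the start, was matched by gene identifier for 15101 protein-coding genes. Of these, 2041 had only one-repeat intervals within 1000 bp of the start, 6962 had a both-repeat interval there and 6098 had none. The far ends of these genes were not considered here. The median GC content was 66.3%, 65.7% and 55.3% in these groups, against 63% over all. The median number of CpG pairs per 300 bases was 26, 27 and 7, against 22 over all. The letters CCGGAAG, on either strand, were in 11.7% of one-repeat promoters, 22.8% of both-repeat promoters, 5.67% of promoters with no interval and 14.4% of all. CCAAT was in 29.5%, 40.1%, 33.5% and 36.0%, and TATAAA in 7.10%, 4.34%, 16.7% and 9.71%. GGGCGG was in 69.5%, 74.5%, 37.5% and 58.9%, and CACGTG in 9.65%, 10.4%, 6.64% and 8.77%. No motif contains another, both strands were searched, and each share is the share of windows with at least 1 match. These shares are a description with no test, and a match is not evidence of binding.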

How the data were processed

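HNRNPU, H3K4me1, H3K27ac and POLIIS2P were profiled by CUT&Tag in 17 libraries of H1 cells. Tools named in the submitters' processing notes are cutadapt, Bowtie2, SAMtools, MACS2 and deepTools, with build hg38. Their options, the control and the way repeated sequence was mapped are not given in the sources used here. The paper listed with the study does not describe these libraries, so its methods were not used. The authors deposited 1 summit list per library, and their scores were taken as −log10 of a p-value or q-value, as deposited, from their layout and their lowest values (1.30 in both HNRNPU lists). The deposited series-wide HNRNPU list of 400 bp intervals carries a score of 0 throughout, a placeholder, and gave positions only. The number of summits limits precision, and it is no substitute for depth.

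Classes, distances and shares were computed in Python 3.11.15 with numpy 2.4.6, pandas 2.3.3 and scipy 1.17.1, figures with matplotlib 3.10.9. Gene ends were taken from the RefSeq table of GRCh38.p14. Groups followed the sample titles. Shares were compared with the library as the unit by exact permutation tests, two-sided, with Benjamini-Hochberg adjustment over 8 tests. The scripts were tested on simulated data. The repeat numbers did not pair the libraries (correlations of deviations of −0.00967 to 0.00940). Named intervals were the 10 highest HNRNPU scores of each repeat, the 10 highest mean POLIIS2P and the 10 highest mean histone percentiles, with all list genes having only one-repeat intervals at their ends. Genes named for the number of intervals inside them were chosen after their values were seen. Some genes that these rules name are not reported here. The members and the gene lists were chosen with earlier results of these data known. Alternatives changed the number of summits, the distances, the HNRNPU score minimum, the antibody names and the libraries included.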

Additional observations from a re-analysis of the deposited data

Results flagged for a closer look

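A library stood apart in the comparison of the classes. The both-repeat minus one-repeat share of strong H3K4me1 was 12.0 points in the second replicate of shHNRNPU#2 and 9.96 to 10.2 points in the other 3 shHNRNPU libraries. The gap to its nearest neighbour was 0.873 of the range of the group. Of 8 sets of 4 libraries examined in this way, 1 was marked, and chance marks about 5% of such sets. Its one-repeat share, at 15.4%, was within the 15.1% to 15.5% of the others.

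The drop from both-repeat to one-repeat intervals differed between the marks. It was 25.7 points for H3K27ac and 10.6 points for H3K4me1 in shHNRNPU cells, a difference of 15.1 points with an exact permutation p of 0.0286 and an adjusted p of 0.0889. It was marked because the test of the difference itself passed 0.05 before adjustment. Away from gene ends the difference was 2.12 points, and with summits of a score of at least 10 it was −1.96 points. The larger drop for H3K27ac thus depended on the intervals and the summits used.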

How the results depend on the processing

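The lower share of strong histone marks at one-repeat than at both-repeat intervals kept its direction and its test under all alternatives run (14.0 to 26.6 points), and leaving out 1 library gave 17.5 to 19.5 points. The POLIIS2P difference kept its direction and was 41.5 points with all deposited summits, 24.9 with the 10000 strongest, 34.1 with a score of at least 10, 33.5 within 200 bp and 26.5 away from gene ends, and leaving out 1 library gave 35.8 to 36.6. The difference between intervals of repeat 2 only and repeat 1 only lost its unadjusted call with all deposited summits (0.147), within 200 bp (0.238), within 1000 bp (0.235), with HNRNPU scores of at least 2 (0.209), away from gene ends (0.107) and in shHNRNPU libraries only (0.157), and leaving out 1 library gave 0.199 to 0.307 points (exact permutation p = 0.0137 to 0.0889). The difference between the marks, a test added after seeing the data, was −1.96 with a score of at least 10, 2.12 away from gene ends, 6.68 with all deposited summits and 14.0 to 16.1 without 1 library.

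For shHNRNPU against shLUC, H3K4me1 turned its direction with the antibody names exchanged, at −0.119. Combined with that exchange, a choice added after seeing the data, it was −1.79 with all deposited summits, −0.0515 with shHNRNPU#1 only, −0.187 with shHNRNPU#2 only and −0.119 with the replicate block. With all deposited summits H3K4me1 was 25.05 and H3K27ac −32.7 as labelled, H3K27ac was −5.92 with the names exchanged and the joined marks were −3.76. Without 1 library H3K4me1 was 2.40 to 2.72 as labelled, H3K27ac was −3.60 to −3.03, and the joined marks were −1.05 to −0.683. The joined difference between the classes was −1.47 with all deposited summits, and 1.05 to 3.60 without 1 library. POLIIS2P was −3.41 with all deposited summits, −0.0302 with the 10000 strongest, 0.188 within 1000 bp, 0.195 with HNRNPU scores of at least 2 and 0.0178 to 0.117 without 1 shLUC library. The replicate numbers did not pair the libraries. With the replicate block, the values as labelled stayed at 2.56 for H3K4me1, −3.27 for H3K27ac, −0.866 joined and 2.32 between the classes, and no call changed. The cause of these shifts was not tested.

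The gene-end share was 8.08% at 500 bp, 15.9% at 2000 bp, 12.4% with HNRNPU scores of at least 2 and 11.1% with other-repeat summits up to 200 bp outside counted. The gene-body share was 50.3%, 45.4%, 47.5% and 48.3% in the same order and 47.8% with chromosome X, and the intergenic share was 41.6% at 500 bp and 38.7% at 2000 bp. These follow from wider or narrower gene ends or from other members. The class held 25332 to 28761 intervals over the alternatives.

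Without read counts, a one-repeat interval cannot be told from a both-repeat one that missed the calling threshold in 1 library. Lists of equal length do not make shallow and deep libraries equal.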
